A study of Rattus norvegicus with 8 samples.

Results

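The miR-17-92 cluster is a set of microRNAs cut from 1 shared precursor transcript, and 2 further clusters of the genome, miR-106a-363 and miR-106b-25, are its paralogues. The 23 microRNAs described here were all those on a rat microRNA array whose names carry miR-17, miR-18a, miR-19a, miR-19b, miR-20a, miR-20b, miR-92a, miR-93, miR-106b or miR-25, with either arm of the hairpin, of 758 microRNAs in all. The RNA came from the renal cortex of male rats, on 8 one-colour arrays with 2 arrays for each of 4 groups. DOCA-EVs rats underwent nephrectomy, ate a 1.5% sodium diet, received deoxycorticosterone acetate (a mineralocorticoid, 8 mg/kg under the skin 2 times a week) and, from week 2, a weekly intravenous dose of extracellular vesicles of adipose mesenchymal cells. DOCA rats had the same nephrectomy, diet and hormone with intravenous vehicle in place of vesicles. UNX rats had the nephrectomy, a 0.50% sodium diet and the oil vehicle under the skin. SHAM rats were sham-operated and ate the 0.50% sodium diet. The cortex was taken 9 weeks after surgery per the treatment protocol, whereas a short sample note gives 8 weeks. DOCA-salt therefore combines the hormone and the diet in both of its groups. The labels number the replicates and do not state that each is a separate rat, so the p-values measure the spread between arrays.

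The miR-17-92 cluster is known as a proliferation-linked transcription unit: the transcription factors MYC and E2F induce it, and its overexpression in mice speeds lymphoma. In mouse kidney it is needed in nephron progenitors for normal nephron formation, and it promotes cyst growth in polycystic disease. A microRNA finds its targets mainly through the seed, bases 2 to 8 from its 5′ end, so members with 1 seed repress overlapping sets of messenger RNAs. In human and mouse cells, the miR-17 family represses the cell cycle inhibitor p21 and members of the E2F family, and miR-92a restrains vessel growth through integrin alpha 5 in endothelium. The miR-18 family is known to repress connective tissue growth factor.

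The mature sequences are shown by seed family because the families are the units compared below. They are RefSeq's, from its table of the GRCr8 assembly, 5′ to 3′, with the seed in capitals. All 23 members matched an entry, and 10 of them carry 1 of the 4 family seeds.
miR-17-5p: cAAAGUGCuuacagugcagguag
miR-20a-5p: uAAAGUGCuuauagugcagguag
miR-20b-5p: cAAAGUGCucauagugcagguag
miR-93-5p: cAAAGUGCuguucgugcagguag
miR-106b-5p: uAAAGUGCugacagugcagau
miR-18a-5p: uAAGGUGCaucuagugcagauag
miR-19a-3p: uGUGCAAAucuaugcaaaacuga
miR-19b-3p: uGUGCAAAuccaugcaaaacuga
miR-25-3p: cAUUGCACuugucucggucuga
miR-92a-3p: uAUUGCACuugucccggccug

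The first 5 sequences form family 17, miR-18a-5p is family 18 alone, the next 2 form family 19 and the last 2 form family 92. The 2 members of family 19 differ by a single base outside the seed, U11C from miR-19a-3p to miR-19b-3p, with positions counted from 1 at the 5′ end. miR-17-5p and miR-20a-5p differ at 2 bases, C1U and C12U, and miR-25-3p and miR-92a-3p at 3 of the 21 bases they share, C1U, U14C and U18C. Sequences this close can hybridise to each other's probes, so the values of miR-17-5p, miR-20a-5p and miR-20b-5p, and those of miR-19a-3p and miR-19b-3p, are not certain to be separate measurements. In the RefSeq annotation, Mir17, Mir18a, Mir19a, Mir20a, Mir19b1 and Mir92a1 lie beside each other, as do Mir106a, Mir20b, Mir19b2 and Mir92a2 on another chromosome, and Mir106b, Mir93 and Mir25 on yet another. The mature miR-17-5p, miR-19b-3p and miR-92a-3p are each encoded by 2 genes, 1 in the first cluster and 1 in the second, so their array signal cannot be assigned to either.

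Levels are given as log2 of the scanner's processed signal after scaling each array to the 75th percentile of its well-measured probes. They are probe signals, so the level of a microRNA is compared between arrays and never with the level of another microRNA. Of the 23 members, 10 were detected on both arrays of at least 1 group and entered the fit with 242 microRNAs in total, and 8 were detected on all 8 arrays. Family 17 contributed 5 of these 8, family 92 contributed 2 and family 19 contributed miR-19b-3p. Of the 13 members left out, 12 were detected on no array: miR-17-1-3p, miR-17-2-3p, miR-19a-5p, miR-19b-1-5p, miR-19b-2-5p, miR-20a-3p, miR-20b-3p, miR-25-5p, miR-92a-1-5p, miR-92a-2-5p, miR-93-3p and miR-106b-3p, all of them the arm opposite to the family seed. The remaining one was miR-18a-5p. The relatives miR-363-3p, miR-363-5p, miR-92b-3p and miR-32-5p, which share a cluster or the seed of family 92, were above background on no array.

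Facts of the whole data set bear on the members as follows. Between 208 and 264 microRNAs were detected per array. The brightest hybridisation control read 1136 on DOCA-EVs replicate 2 and 1005 on DOCA replicate 2, against 2200 to 2415 on the other 6 arrays. The median absolute difference between the replicates, over the 242 microRNAs in the fit, was 0.37 log2 in DOCA-EVs, 0.25 in DOCA, 0.18 in UNX and 0.06 in SHAM. The 242 include microRNAs not detected on every array. Among the 8 members detected on all arrays it was 0.36, 0.23, 0.06 and 0.05 in the same groups. Kidney tubule microRNAs were at a high summed level on every array, from 12.33 to 12.87 log2 over 7 of 8 listed, and erythrocyte, leukocyte and vascular microRNAs were present too. The groups equal the 4 columns of the slide and the replicate numbers its 2 rows, so group and slide column cannot be told apart. In whole cortex, more cells of a type and more of a microRNA per cell cannot be told apart either.

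**Figure D1:**
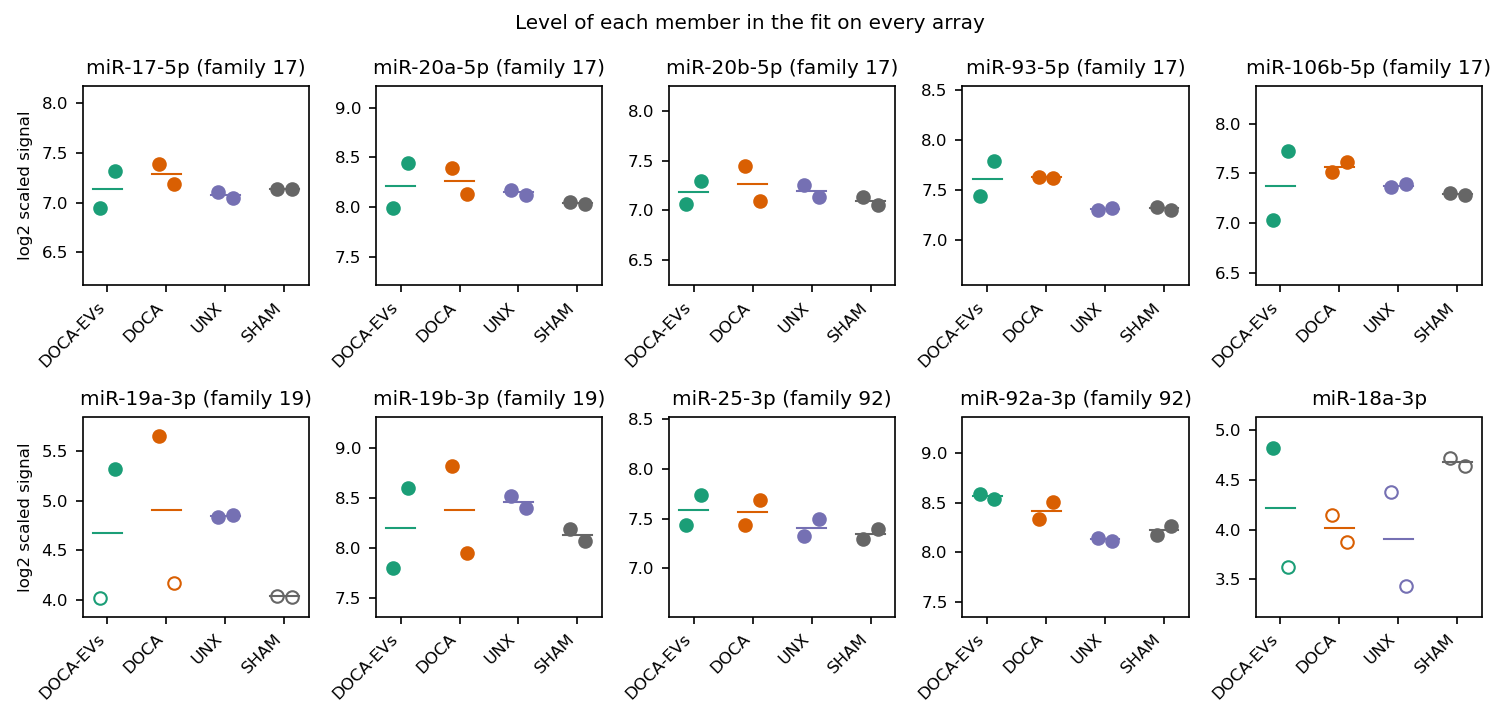
Level of each of the 10 members in the fit on every array, as log2 of the scaled signal (vertical axis, 2 log2 units high in each panel). Points are arrays, lines are group means of 2 arrays, and open points are arrays on which the microRNA was not above background; miR-19a-3p and miR-19b-3p have widely separated replicates in DOCA-EVs and DOCA, whereas miR-92a-3p has all 4 DOCA-EVs and DOCA points above all UNX and SHAM points.

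Both members of family 92 averaged higher in DOCA-EVs and DOCA than in UNX and SHAM at the main scaling, and neither passed the test. miR-92a-3p, the end of the miR-17-92 transcript, was at 8.59 and 8.54 log2 in DOCA-EVs, 8.33 and 8.51 in DOCA, 8.14 and 8.12 in UNX, and 8.17 and 8.27 in SHAM. All 4 DOCA-salt arrays lay above all 4 standard-diet arrays. With both DOCA-salt groups pooled against both standard-diet groups, the difference was 0.32 ± 0.09 log2 (SE, 4 arrays against 4), a 1.25-fold higher level, with a 95% confidence interval from 0.10 to 0.53 and an adjusted p of 0.0966 in limma. The replicate number as a block gave an adjusted p of 0.0843, and the difference was 0.30 within slide row 1 and 0.33 within slide row 2. Both of its probes had groups that did not overlap, with differences of 0.25 and 0.34, and 6 ways of scaling the arrays gave 0.09 to 0.36.

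miR-25-3p, which shares the seed of miR-92a-3p and comes from the miR-106b-25 cluster, was at 7.44 and 7.73 log2 in DOCA-EVs, 7.43 and 7.69 in DOCA, 7.32 and 7.50 in UNX, and 7.30 and 7.40 in SHAM. Its replicate 2 read higher than its replicate 1 in every group, and the DOCA-salt and standard-diet arrays overlapped. The pooled difference was 0.19 ± 0.12 log2, with an interval from −0.09 to 0.48 and an adjusted p of 0.399 in limma. It was positive under 3 of the 6 scalings, and under all 6 relative to the median of all microRNAs (0.001 to 0.20). Scalings by 1 factor per array give nearly the same value relative to that median, so these 6 are not separate results.

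Family 17 was measured on every array with all 5 members, and none of them passed the test in any comparison. miR-93-5p, the member of this family encoded between Mir106b and Mir25, was at 7.44 and 7.79 log2 in DOCA-EVs, 7.63 and 7.62 in DOCA, 7.30 and 7.32 in UNX, and 7.33 and 7.30 in SHAM. Its 4 DOCA-salt arrays lay above the 4 standard-diet arrays, as for miR-92a-3p. The pooled difference was 0.31 ± 0.11 log2, 1.24-fold, with an interval from 0.05 to 0.56, an adjusted p of 0.144 in limma and 0.112 with the block. Within slide row 1 it was 0.22 and within row 2 it was 0.39. Its brighter probe gave 0.35 with groups that did not overlap, and its dimmer probe gave 0.15 with groups that did. Without DOCA-EVs replicate 1, the lowest of the 4 DOCA-salt arrays, the difference was 0.40. Leaving out the lowest array of the higher side raises the difference by construction, and here it leaves 1 array in DOCA-EVs.

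miR-106b-5p, the first microRNA of its cluster, was at 7.03 and 7.73 log2 in DOCA-EVs, 7.51 and 7.61 in DOCA, 7.36 and 7.39 in UNX, and 7.30 and 7.28 in SHAM. DOCA, UNX and SHAM each kept their replicates within 0.10, whereas those of DOCA-EVs lay 0.70 apart, on both sides of all other arrays. miR-17-5p, for which the family is named, was at 6.95 and 7.31 log2 in DOCA-EVs, 7.39 and 7.19 in DOCA, 7.11 and 7.05 in UNX, and 7.13 and 7.14 in SHAM. miR-20a-5p, its near neighbour in the transcript, was at 7.99 and 8.45 in DOCA-EVs, 8.40 and 8.13 in DOCA, 8.18 and 8.13 in UNX, and 8.05 and 8.03 in SHAM. These 2 microRNAs had the same order of arrays in the DOCA-salt groups: replicate 2 above replicate 1 in DOCA-EVs and below it in DOCA. miR-20b-5p, from the miR-106a-363 cluster, did likewise, with 7.07 and 7.30 log2 in DOCA-EVs, 7.44 and 7.10 in DOCA, 7.25 and 7.13 in UNX, and 7.14 and 7.06 in SHAM. The pooled differences of miR-17-5p, miR-20a-5p, miR-20b-5p and miR-106b-5p lay between 0.08 and 0.14 log2, with adjusted p from 0.644 to 0.755 in limma, and each was positive under 2 of the 6 scalings. Relative to the median of all microRNAs under the same scaling, miR-106b-5p and miR-20b-5p were positive under all 6, and miR-17-5p and miR-20a-5p under 4. Scalings by 1 factor per array are nearly equal on that footing, so these counts do not stand for 6 separate results.

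Family 18 was at the limit of detection. Its guide strand, miR-18a-5p, was at 3.56 and 3.57 log2 in DOCA-EVs, 4.52 and 3.26 in DOCA, 3.22 and 3.24 in UNX, and 3.34 and 3.19 in SHAM. DOCA replicate 1 was the single array with a detection call, and it was above background on none, so it was not tested. Its opposite arm, miR-18a-3p, entered the fit through SHAM, with 4.82 and 3.62 log2 in DOCA-EVs, 4.15 and 3.87 in DOCA, 4.37 and 3.43 in UNX, and 4.72 and 4.64 in SHAM. It was above background on DOCA-EVs replicate 1 alone, and its fold changes are therefore not read as changes of level.

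Family 19 had replicates far apart in both DOCA-salt groups and close together in UNX and SHAM. miR-19b-3p was at 7.79 and 8.60 log2 in DOCA-EVs, 8.82 and 7.94 in DOCA, 8.52 and 8.40 in UNX, and 8.19 and 8.07 in SHAM. Its lowest and its highest array were both DOCA-salt arrays, and the arrays of UNX lay above those of SHAM. miR-19a-3p was at 4.02 and 5.32 log2 in DOCA-EVs, 5.65 and 4.17 in DOCA, 4.84 and 4.86 in UNX, and 4.04 and 4.04 in SHAM. It was above background on DOCA-EVs replicate 2, DOCA replicate 1 and both UNX arrays. The 4 highest arrays were the same for both microRNAs, whose sequences differ at 1 base. Without DOCA-EVs replicate 2 and DOCA replicate 2, the arrays with dim controls described above, the difference of miR-19a-3p in DOCA against UNX was 0.80. Over all arrays it was 0.06. The DOCA array left out was the lower of its pair and was not above background, so leaving it out raises the difference by construction. Among the replicate 2 arrays, DOCA read below UNX, 4.17 against 4.86. In DOCA-EVs against DOCA the same fit gave a lower value for miR-19a-3p, but the DOCA-EVs array left was not above background, so no size is given. That fit leaves 1 array in each DOCA-salt group and takes its spread from UNX and SHAM.

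**Figure D2:**
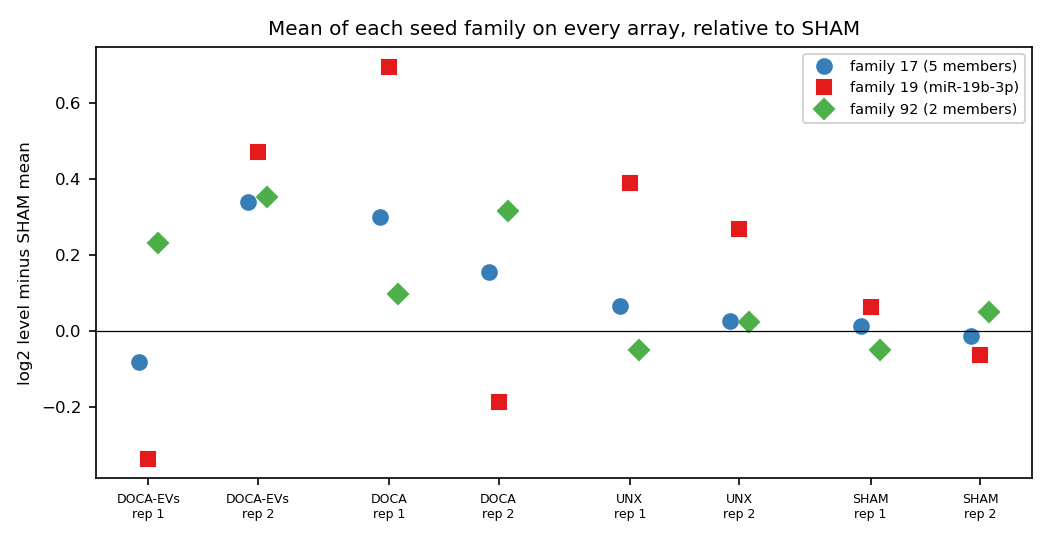
Mean of each seed family on every array, as the log2 level minus the SHAM mean of the same members, over members detected on all 8 arrays (vertical axis; arrays along the horizontal axis). Family 92 is between 0.10 and 0.35 on the DOCA-EVs and DOCA arrays, family 17 between −0.08 and 0.34, and family 19 (miR-19b-3p alone) between −0.34 and 0.70.

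Taken as the mean of its members relative to SHAM, family 17 stood at −0.08 and 0.34 log2 in DOCA-EVs, 0.30 and 0.15 in DOCA, and 0.07 and 0.03 in UNX. Family 92 stood at 0.23 and 0.35 in DOCA-EVs, 0.10 and 0.32 in DOCA, and −0.05 and 0.02 in UNX. miR-19b-3p stood at −0.34 and 0.47 in DOCA-EVs, 0.70 and −0.19 in DOCA, and 0.39 and 0.27 in UNX. Among the 4 DOCA-salt arrays, the families were nearest to each other on DOCA-EVs replicate 2 and farthest apart on DOCA replicate 1. Family 92 minus miR-19b-3p was 0.57 and −0.12 in DOCA-EVs, −0.60 and 0.50 in DOCA, −0.44 and −0.25 in UNX, and −0.11 and 0.11 in SHAM. This difference had both signs in each DOCA-salt group and 1 sign in UNX, and its SHAM values are opposite by construction.

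Nephrectomy at standard sodium was read from UNX against SHAM. None of the 10 members passed the threshold of 0.05 on the adjusted p, against 0% of all 242 microRNAs in limma, and 0 members had an unadjusted p below 0.05, against 6.61% of all. Family 19 had the largest differences among the members that were above background. miR-19b-3p was 0.33 ± 0.36 log2 higher in UNX than in SHAM (2 arrays against 2, SE from the spread over all 8). Its interval ran from −0.55 to 1.21, with an adjusted p of 0.704 in limma, and it was positive under all 6 scalings (0.17 to 0.66). The SD between its replicates was 0.57 in DOCA-EVs and 0.62 in DOCA, against 0.09 in UNX and 0.09 in SHAM. Most of that spread therefore came from groups outside this comparison. miR-19a-3p was above background on both UNX arrays and on neither SHAM array, so that its difference is a bound. As a point estimate at the main scaling, it was at least 1.46-fold higher in UNX. The fit of its measured levels gave an interval from −0.58 to 2.19 log2, which includes no change, and an adjusted p of 0.63 in limma. Under the 6 scalings the measured difference ran from 0.14 to 1.23 log2. The bound sets each SHAM array to its dimmest microRNA above background, or to the measured level where that is higher. At the main scaling the 5 members of family 17 lay between −0.06 and 0.11, and miR-92a-3p and miR-25-3p at −0.09 and 0.06. The UNX arrays lay above the SHAM arrays for 4 members, against 25.2% of all microRNAs, and below them for 3, against 47.5% of all. One of the 3 was miR-18a-3p, which entered the fit through SHAM and was above background in neither group, and one of the 4 was miR-19a-3p. Of the 8 members detected on all arrays, 3 lay above and 2 below, against 56 above and 82 below of the 192 microRNAs detected on all arrays. The median over the 10 members was 0.07 log2 and that over all 242 microRNAs was −0.12.

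DOCA-salt after nephrectomy was read from DOCA against UNX. Again 0 of the 10 members passed the threshold, against 1.65% of all microRNAs in limma, and 0 had an unadjusted p below 0.05, against 23.1% of all. The differences nearest to the threshold were 0.32 ± 0.15 log2 for miR-93-5p (adjusted p 0.256) and 0.29 ± 0.13 for miR-92a-3p (adjusted p 0.235), each with 2 arrays against 2 that did not overlap. Their 95% intervals reached from −0.04 to 0.68 and from −0.02 to 0.59. The other members of family 17 lay between 0.07 and 0.21, with miR-17-5p at 0.21 ± 0.16 and an adjusted p of 0.546. miR-19b-3p was at −0.08 ± 0.36, and miR-19a-3p, above background on 1 of the 2 DOCA arrays, at 0.06 ± 0.57. The DOCA arrays lay above the UNX arrays for 4 members, all in families 17 and 92, against 31.4% of all microRNAs, and below them for 0, against 20.7%. The members' median was 0.13 and that of all microRNAs 0.08.

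The signs of several members changed with the scaling of the arrays. DOCA replicate 2 had the lowest 75th percentile, and without any scaling the median of all microRNAs moved by −0.58 log2 in DOCA against UNX. Under 6 scalings the difference of miR-92a-3p ran from −0.29 to 0.29 and that of miR-93-5p from −0.26 to 0.32, positive in 5 of the 6 for each. miR-17-5p and miR-106b-5p were positive in 2 of the 6, and miR-20a-5p and miR-20b-5p in 1 of the 6. Relative to the median of all microRNAs under the same scaling, miR-92a-3p stood 0.06 to 0.21 higher and miR-93-5p 0.02 to 0.24 higher. On that footing miR-106b-5p was positive under 6 of the 6, miR-17-5p under 5, miR-20a-5p under 4 and miR-20b-5p under 0. Apart from the 2 quantile normalizations, the scalings differ by 1 factor per array, which this subtraction removes. The 6 are therefore not separate results: miR-106b-5p stood at 0.11 under each of those scalings, and at 0.03 and 0.007 under the 2 quantile normalizations.

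**Figure D3:**
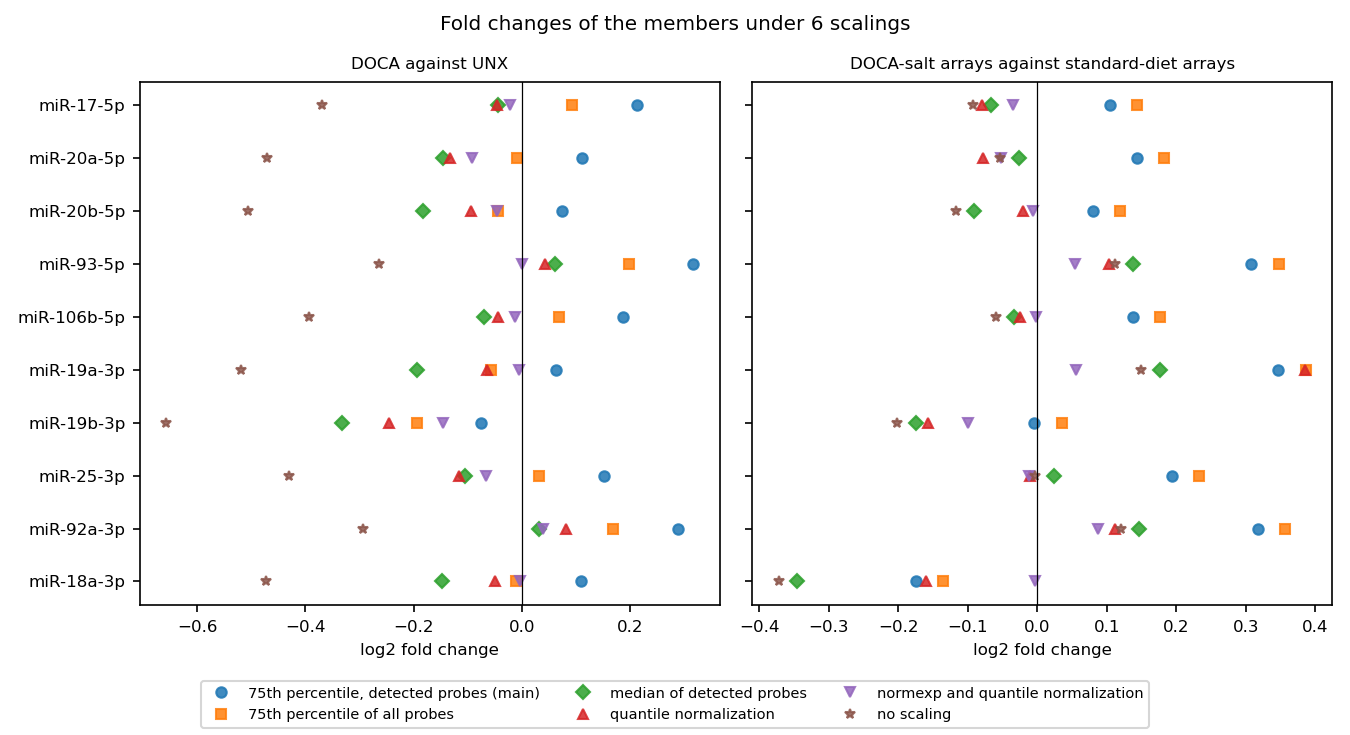
Fold changes (log2, horizontal axis) of the 10 members in the fit under 6 scalings, for DOCA against UNX on the left and both DOCA-salt groups against both standard-diet groups on the right. miR-92a-3p and miR-93-5p keep a positive value under all 6 scalings on the right, from 0.09 to 0.36 and from 0.05 to 0.35, whereas without scaling every member is negative on the left.

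Vesicle treatment was read from DOCA-EVs against DOCA. None of the 10 members passed the threshold, against 0% of all microRNAs in limma, with 0 members at an unadjusted p below 0.05, against 10.3% of all. At the main scaling all 5 members of family 17 had negative differences, from −0.19 for miR-106b-5p to −0.01 for miR-93-5p. miR-19b-3p was at −0.19, and family 92 at 0.02 for miR-25-3p and 0.15 ± 0.13 for miR-92a-3p. Of these, miR-92a-3p was the single member whose DOCA-EVs arrays both lay above the DOCA arrays, where 12.8% of all microRNAs did so and 11.6% lay below. Its interval ran from −0.16 to 0.45, with an adjusted p of 0.87. The intervals of family 17 allow changes in either direction, that of miR-17-5p reaching from −0.55 to 0.24. Within slide row 1 all 5 members of family 17 had lower values in DOCA-EVs than in DOCA, with differences from −0.49 to −0.19, and within slide row 2 all 5 had higher ones, from 0.12 to 0.32. Over both rows, miR-20a-5p and miR-20b-5p were positive under 4 of the 6 scalings, miR-93-5p under 3, and miR-17-5p and miR-106b-5p under 1. Relative to the median of all microRNAs, miR-93-5p was positive under 1 and the other members of the family under 0. These counts do not stand for 6 separate results, since scalings by 1 factor per array are nearly equal on that footing. Leaving out the scaling moved the median of all microRNAs by 0.44 log2 in this comparison.

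Vesicle-treated DOCA-salt cortex was also set against nephrectomy alone, a comparison that shares its UNX arrays with DOCA against UNX. For DOCA-EVs against UNX, 0 of the 10 members passed, against 2.48% of all microRNAs in limma, and 1 member, miR-92a-3p, had an unadjusted p below 0.05, against 12.8% of all. Its difference was 0.43 ± 0.13 log2, 1.35-fold, with an interval from 0.13 to 0.74 and an adjusted p of 0.209. It was 0.45 within slide row 1 and 0.42 within row 2, and lay between 0.21 and 0.43 under the 6 scalings. miR-93-5p followed with 0.30 ± 0.15 and an adjusted p of 0.419. The DOCA-EVs arrays lay above the UNX arrays for these 2 members, against 21.5% of all microRNAs, and below them for none of the members, against 15.3%. The medians were 0.06 for the 10 members and 0.11 for all microRNAs.

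When the 4 DOCA-salt arrays were pooled against the 4 standard-diet arrays, 0 of the 10 members passed, against 6.61% of all microRNAs in limma. The 2 members with an unadjusted p below 0.05, against 24% of all, were miR-92a-3p and miR-93-5p. They were also the 2 whose groups did not overlap, higher in the DOCA-salt arrays, against 10.3% of all microRNAs, while 0 members and 4.13% of all were lower without overlap. The family medians were 0.14 log2 for family 17 and 0.26 for family 92, beside −0.004 for miR-19b-3p and a median of −0.007 for all 242 microRNAs. miR-19a-3p was above background on 2 of the 4 arrays on each side and is left out here. By cluster of origin, the 3 guide strands of miR-106b-25, at 0.14 for miR-106b-5p, 0.31 for miR-93-5p and 0.19 for miR-25-3p, were all positive at the main scaling. This was not particular to the cluster: 7 of the 8 members detected on all arrays were positive, against 52.6% of all microRNAs detected on all arrays. Relative to the median of all microRNAs, the 3 of miR-106b-25 were positive under all 6 scalings, and so were miR-92a-3p and miR-20b-5p. miR-17-5p and miR-20a-5p were positive under 4 and miR-19b-3p under 2. The lowest values were 0.001 for miR-25-3p and 0.01 for miR-106b-5p. Scalings by 1 factor per array are nearly equal on that footing and are not separate results.

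**Figure D4:**
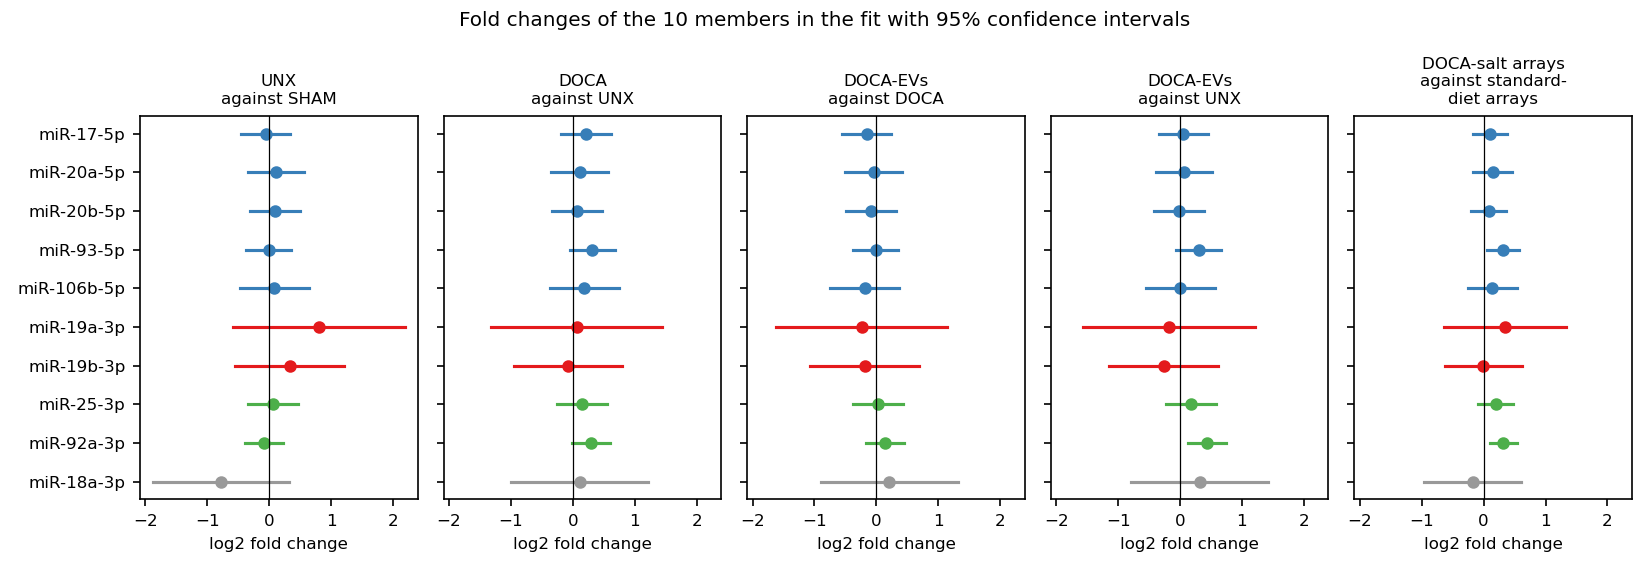
Differences (log2 fold change, horizontal axis) of the 10 members in the fit in the 5 comparisons, with 95% confidence intervals as lines; blue is family 17, red family 19, green family 92 and grey miR-18a-3p. The intervals of miR-92a-3p lie above 0 in DOCA-EVs against UNX and in the pooled comparison, as does that of miR-93-5p in the pooled one, and those of family 19 are the widest of the 3 families shown.

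Markers of other cell types moved with the pooled comparison. The summed leukocyte level, over 6 of 7 listed microRNAs in the fit, was 9.54 and 9.81 log2 in DOCA-EVs, 9.86 and 9.96 in DOCA, 9.36 and 9.36 in UNX, and 9.28 and 9.28 in SHAM, with 2 of the 6 called higher in the DOCA-salt arrays, miR-155-5p and miR-146b-5p. Of these 2, miR-155-5p was above background on 5 of the 8 arrays and miR-146b-5p on 4. In the summed leukocyte level, all 4 DOCA-salt arrays were above all 4 standard-diet arrays, as for miR-92a-3p and miR-93-5p. The tubule sum was 12.51 and 12.66 in DOCA-EVs, 12.43 and 12.33 in DOCA, 12.83 and 12.87 in UNX, and 12.62 and 12.65 in SHAM, with 2 of 7 called lower, miR-192-5p and miR-194-5p, and 1 called higher, miR-200c-3p. miR-200c-3p stood 1.30 log2 above UNX in DOCA-EVs and 0.18 in DOCA, and its DOCA-salt and standard-diet arrays overlapped. It was above background on 4 of the 8 arrays. The part of leukocytes and tubule cells in the levels of miR-92a-3p and miR-93-5p was not tested. The erythrocyte microRNA miR-451-5p, at 7.02 and 7.09 in DOCA-EVs, 8.59 and 6.74 in DOCA, 8.25 and 7.79 in UNX, and 8.10 and 8.04 in SHAM, had its highest array in DOCA replicate 1, as miR-19b-3p and miR-19a-3p did. On DOCA-EVs replicate 2, where family 19 was high as well, miR-451-5p was low. The vascular sum lay between 10.89 and 11.28 on the 8 arrays.

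The replicates of miR-19b-3p had opposite orders in the DOCA-salt groups, which is given as a description. It was 0.81 log2 higher in replicate 2 than in replicate 1 of DOCA-EVs and 0.88 lower in replicate 2 of DOCA. This order was shared by 42 of the 192 microRNAs detected on all arrays. It was not particular to the family: miR-141-3p, an epithelial microRNA that is no member and is named after its values were seen, had differences of 0.92 and −0.85. miR-19a-3p read higher on DOCA-EVs replicate 2 and on DOCA replicate 1 as well, but it was not above background on the other array of either pair, so no size is given. Replicate 2 of both groups was the array with the dim hybridisation control, so the dim array was the higher of its pair in DOCA-EVs and the lower in DOCA. Within family 17 the order was shared by miR-17-5p (0.37 and −0.20), miR-20a-5p (0.46 and −0.27) and miR-20b-5p (0.23 and −0.34). miR-93-5p had 0.35 and −0.01, nearly equal replicates in DOCA, and miR-106b-5p departed from the order with 0.70 and 0.10. miR-92a-3p, cut from the same transcripts as miR-19b-3p, had −0.05 and 0.18. In UNX and SHAM the replicates of miR-19b-3p differed by −0.12 and −0.13.

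**Figure D5:**
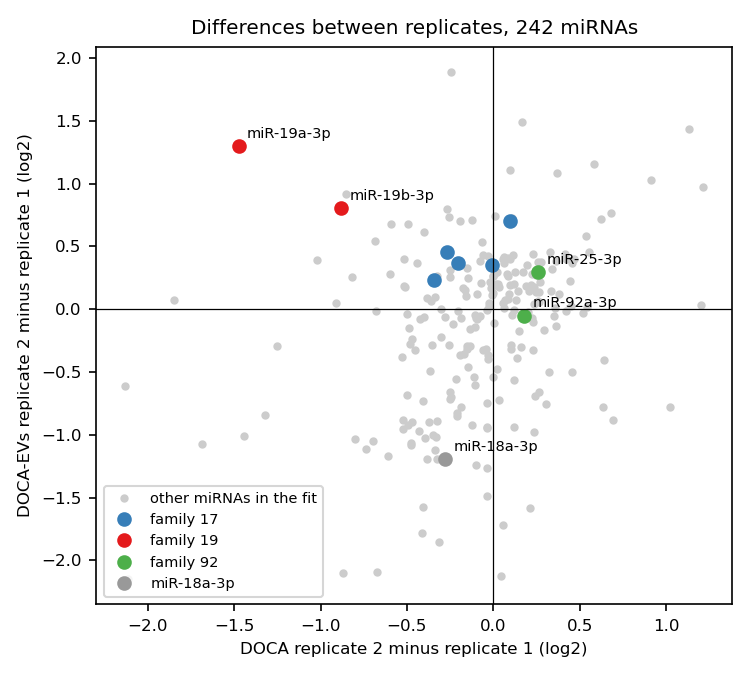
Difference between replicate 2 and replicate 1 (log2) in DOCA-EVs (vertical axis) and in DOCA (horizontal axis) for the 242 microRNAs in the fit, 1 point each, with the members coloured by family. miR-19b-3p lies at the upper left, at 0.81 in DOCA-EVs and −0.88 in DOCA, next to the non-member miR-141-3p, and miR-92a-3p lies near the centre; miR-19a-3p, farther out, was not above background on 1 array of each pair.

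Base composition was set beside these replicate differences. miR-19a-3p had 34.8% G and C, miR-19b-3p and miR-20a-5p 39.1% each, and miR-92a-3p had the highest share of the family members at 57.1%. Across the 172 microRNAs detected on all arrays that have a RefSeq sequence, the G and C share and the replicate difference had a Pearson r of −0.22 in DOCA-EVs, 0.24 in DOCA, −0.04 in UNX and −0.07 in SHAM. These are correlations across microRNAs of the same arrays and are given as a description. The part of base composition in the pattern of family 19 was not tested.

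The microRNAs with the most similar pattern over the 8 arrays were found for 1 member of each family in the fit, as the smallest root mean square difference of log2 levels after each was centred on its own mean. miR-17-5p was nearest to miR-16-5p (0.069 log2), miR-20a-5p (0.080) and miR-20b-5p (0.083), so that 2 of its 3 nearest were of its own seed family. Each of these 2 differs from miR-17-5p at 2 bases and is not certain to be a separate measurement, so the likeness is not read as a result about the family. miR-19b-3p was nearest to miR-301a-3p (0.149), miR-101b-3p (0.161) and miR-450a-5p (0.181). The first of these was at 4.72 and 5.26 log2 in DOCA-EVs, 5.44 and 4.76 in DOCA, 5.05 and 4.89 in UNX, and 4.69 and 4.60 in SHAM, with DOCA replicate 1 highest and DOCA-EVs replicate 2 next, as for miR-19b-3p, but with its lowest arrays in SHAM. miR-92a-3p was nearest to miR-125a-5p (0.057), let-7e-5p (0.098) and let-7c-5p (0.098), none of them a member. miR-125a-5p was at 9.05 and 9.19 log2 in DOCA-EVs, 8.90 and 9.11 in DOCA, 8.73 and 8.67 in UNX, and 8.82 and 8.87 in SHAM, again with every DOCA-salt array above every standard-diet array.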

How the data were processed

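MicroRNA of rat renal cortex was measured on 8 one-colour Agilent arrays (design 070154), from 100 ng of RNA each. Per the file headers, the authors used Agilent Feature Extraction 11.5.1.1 with protocol miRNA_1105_Oct12; the deposited scanner files give an intensity per spot, from which the software took the background, without normalization across arrays. The authors' series table has identical intensity values (largest difference 0). The flags used, for detection, background, saturation and outliers, are deposited as other columns of 0 or 1.

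Outlier spots were dropped, the processed signal averaged per probe, divided by the array's 75th percentile over the 271 probes above background on all arrays, floored at 2.57 (the mean SD of the negative controls) and summed per microRNA before log2. The fit took microRNAs detected on both arrays of some group (242 of 758). Above background means that a probe was well above background on 0.5 or more of its spots on that array. No member spot was saturated. limma 3.58.1 in R 4.3.3 fitted 1 mean per group over all 8 arrays (4 residual and 2.18 prior degrees of freedom), with two-sided tests and Benjamini-Hochberg adjustment over the 242. The fit shares 1 spread between groups. The number of arrays limits the precision: 2 arrays against 2 cannot give an exact permutation p below 0.333, so none was used.

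Deviations of same-numbered arrays from their group means correlated in all 6 pairs of groups (r from 0.245 to 0.557, across microRNAs), so the replicate number was taken as pairing them and its block is given beside the results nearest to the threshold. The main fit was tested on simulated arrays for DOCA against UNX. These had the same spread in every group and independent microRNAs, so the test does not cover the unequal spread between groups seen here. The members, lists, comparisons, alternatives and naming rule (every member in the fit; the 3 nearest patterns per family) were chosen with earlier results of these data known. For normexp the median spot signal was used, as the files hold no mean signal. No coordinates are given, since the headers name assembly rn4 and the reference table is GRCr8.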

Additional observations from a re-analysis of the deposited data

How the results depend on the processing

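Over 21 other settings, the 10 members gave 1040 values outside the main one. Of these, 855 lay within 1 SE of the main value and on its side of the threshold, 182 moved further without a call, and 169 changed sign. The 855 include values equal to the main one by construction. These come from the series table, the replicate block, the other filters, and arrays left out of groups that are not in the comparison. The 855 are therefore not a count of separate checks. The other 3 crossed the threshold in fits that leave 1 array in a group, so they are not read as calls. The first was miR-93-5p in the pooled comparison without DOCA-EVs replicate 1 (0.40). Of the pooled fits with 1 array left out, that one also gave the most calls over all microRNAs. The others were miR-19a-3p without both dimly hybridised arrays, in DOCA against UNX (0.80) and, as lower, in DOCA-EVs against DOCA. In the latter the remaining DOCA-EVs array was not above background, so no size is given. That setting leaves 1 array in DOCA-EVs and 1 in DOCA, which are assumed to vary like UNX and SHAM. The counts over all microRNAs in the same setting are given below. With 1 array left out in turn, the members called numbered 0 to 1 in the pooled comparison and 0 to 0 in the other 4. With the replicate block, 0 members were called in each of the 5 comparisons.

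The counts over all microRNAs moved as follows. In DOCA against UNX (4) they were 20 with the median of detected probes, 1 with quantile normalization, 0 with no scaling, 14 with the software's total signal, 2 with no filter, 18 with array weights, 10 without both dim arrays and 0 to 15 with 1 array left out. In DOCA-EVs against DOCA (0) they were 4 with the median of detected probes, 3 with quantile normalization, 5 with normexp and quantile normalization, 2 with no filter, 5 without both dim arrays and 0 to 3 with 1 array left out. In DOCA-EVs against UNX (6) they were 3 among microRNAs detected on all 8 arrays, 1 with normexp and quantile normalization, 0 with the 75th percentile of all probes, quantile normalization, no scaling, no filter, array weights or without both dim arrays, and 0 to 5 with 1 array left out. In the pooled comparison (16) they were 7 with the 75th percentile of all probes, 6 with no scaling, 10 among microRNAs detected on all 8 arrays, 3 with no filter, 10 with array weights, 7 without both dim arrays and 0 to 26 with 1 array left out. In UNX against SHAM (0) array weights gave 3, and 1 array left out gave 0 to 0. The cause of these changes was not tested.

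Scaling moved the median of all microRNAs by up to 0.31 log2 in UNX against SHAM, with no scaling or with the 75th percentile of all probes. Signal over background limits miR-18a-5p, miR-18a-3p and miR-19a-3p.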
